A study of Mus musculus with 17 samples.

Results

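Genes of the TREM2 pathway and of inherited risk for Alzheimer's disease were followed in RNA-seq libraries of the mouse hippocampus during aging: Trem2, Tyrobp, Apoe, Cd33, Inpp5d, Plcg2, Abi3, Spi1, Abca7 and Clu. They were chosen by their symbols, each of which matched 1 identifier, so that 10 of the 38355 identifiers in the count files were members. Members and the gene lists below were chosen with earlier results of these data known, so their shares beside all genes are description. The 17 libraries were made from polyA RNA of hand-dissected hippocampi of untreated wild-type C57BL/6J mice. Single-end libraries held 5 samples aged 3 months (3M) and 6 aged 24 months (24M), and paired-end libraries held 3 samples aged 3 months and 3 aged 29 months (29M). Comparisons were made within a library type, 24M with single-end 3M and 29M with paired-end 3M, and shared no library. Age and library type vary together between 24M and 29M.

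TREM2 is a receptor of microglia, the resident macrophages of the brain, that binds lipids and lipoproteins such as apolipoprotein E. It has no signalling tail of its own and passes its signal through the adaptor TYROBP, whose ITAM motif recruits the kinase SYK, with phospholipase C gamma 2 among the downstream enzymes. Inhibitory receptors such as CD33 and the lipid phosphatase SHIP1, the product of Inpp5d, restrain this kind of signal, and the transcription factor PU.1, the product of Spi1, sets up the gene program of microglia.

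The upstream bases of Trem2, Inpp5d and Apoe are shown because PU.1 binds purine-rich ETS sites and the receptor, its inhibitor and its ligand were each followed here. RefSeq windows on GRCm38.p6 were at hand for 6 of the 10 members (Trem2, Apoe, Cd33, Inpp5d, Plcg2 and Abca7). The 250 bases before the start site are given 5′ to 3′ on the strand of the gene, with matches to GAGGAA or GAGGAAGT on either strand in capitals. The Trem2 window is chr17:48346151-48346400 (plus strand), that of Inpp5d chr1:87620062-87620311 (plus strand) and that of Apoe chr7:19699189-19699438 (minus strand).
Trem2: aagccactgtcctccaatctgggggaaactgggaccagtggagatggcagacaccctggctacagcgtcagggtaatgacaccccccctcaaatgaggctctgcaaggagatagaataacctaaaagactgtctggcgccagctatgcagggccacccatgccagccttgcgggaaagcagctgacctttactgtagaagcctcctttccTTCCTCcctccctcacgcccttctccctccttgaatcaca
Inpp5d: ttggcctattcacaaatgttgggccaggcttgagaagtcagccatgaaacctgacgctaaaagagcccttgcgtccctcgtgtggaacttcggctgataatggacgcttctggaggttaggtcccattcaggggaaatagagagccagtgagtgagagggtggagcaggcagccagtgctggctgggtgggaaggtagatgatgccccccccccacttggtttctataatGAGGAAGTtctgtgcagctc
Apoe: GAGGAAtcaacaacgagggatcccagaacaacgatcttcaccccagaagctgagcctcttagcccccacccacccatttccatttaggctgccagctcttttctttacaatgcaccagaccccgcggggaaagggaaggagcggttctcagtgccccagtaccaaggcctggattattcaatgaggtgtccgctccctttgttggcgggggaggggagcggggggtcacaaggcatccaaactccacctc
The letters GAGGAA occurred on either strand in 4 of the 6 member windows (Apoe, Cd33, Inpp5d and Trem2) and in 23.1% of 27025 promoters of the same length. The Cd33 window, chr7:43533172-43533421 (minus strand), lies inside the gene as GENCODE gives it and covers 57 exon bases, so it is not upstream of that annotation's start. The Trem2 match lay on the opposite strand 40 to 35 bases before the start. The Apoe match lay at the far end of its window, 250 to 245 bases before the start. The longer GAGGAAGT, which contains GAGGAA, occurred among the members in Inpp5d alone, 20 to 13 bases before the start, and in 2.42% of all promoters. The composite ETS and IRF element (EICE), searched on both strands, was in none of the 6 windows and in 2.38% of all promoters. These matches are a description of letters and were not tested for binding.

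The libraries held 9213474 to 28438296 counts on genes. The 24M replicates 1 and 4 differed by less than sampling noise (0.406 times the variance expected from counting alone, with 1.23 as the next lowest of 136 pairs) and entered as 1 sample, which left 5 samples of 24M. Since the labels give no origin beyond separate samples, p-values measure the spread between these samples. Levels are given as CPM, the counts of a gene divided by the library's gene total and scaled to a common total. A gene was called where the quasi-likelihood test of edgeR, adjusted by Benjamini-Hochberg over all genes tested, gave an adjusted p of at most 0.05 and the log2 fold change was at least 0.5 in size. Both parts were required. All 10 members passed the filter on low counts in both comparisons.

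Of the 10 members, the receptor Trem2 and its adaptor Tyrobp rose with age, both at 24M and at 29M, and no other member was called. At 24M that is 2 of 10 members, where 1.34% of all 15683 genes tested were called higher and 0.638% lower. At 29M it is again 2 of 10, where 1.34% of 15097 genes were called higher and 0.113% lower. The fold change was above 0 in 7 of 10 members at 24M (49.2% of all genes) and in 10 of 10 at 29M (49.4% of all genes). The median log2 fold change of the members was 0.19 at 24M and 0.39 at 29M, beside −0.00319 and −0.0021 for all genes tested.

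**Figure D1:**
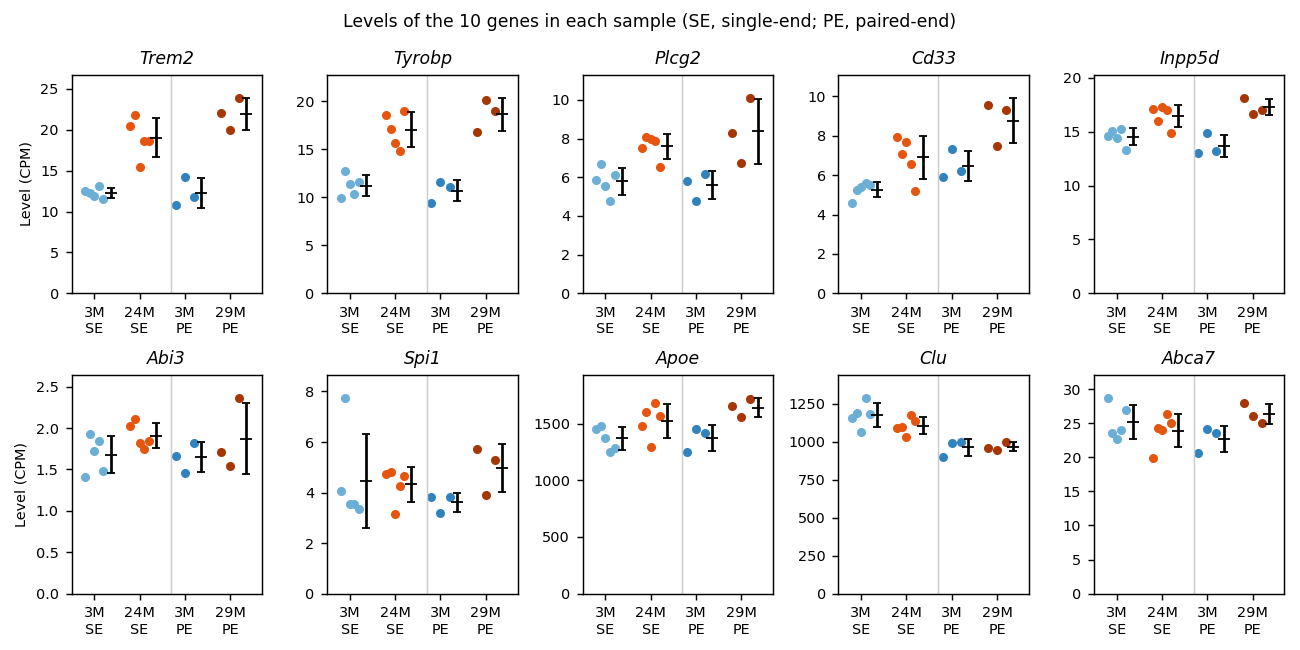
Level of each of the 10 genes in CPM (vertical axes, starting at 0) in every sample of the 4 groups; points are samples and black bars the mean ± SD. The aged points of Trem2 and Tyrobp lie above all 3M points of the same library type at both ages, those of Apoe, Plcg2, Cd33, Inpp5d, Spi1 and Abca7 do so at 29M alone, and 1 3M sample of Spi1 stands at 7.73 CPM.

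Trem2 (ENSMUSG00000023992, chr17:48346401-48354147, plus strand, 5 merged exons) encodes the receptor. In the 3M single-end samples it stood at 12.5, 12.2, 11.9, 13.1 and 11.5 CPM, and in the 24M samples at 20.5, 21.8, 15.5, 18.6 and 18.7 CPM. In the paired-end libraries it stood at 10.8, 14.3 and 11.8 CPM at 3M and at 22.05, 19.9 and 23.8 CPM at 29M. Every aged sample was thus above every young sample of its library type, and the 3M groups of both library types had close means, 12.2 ± 0.607 CPM (SD, n = 5) and 12.3 ± 1.81 CPM (SD, n = 3). The log2 fold change of Trem2 was 0.64 (SE 0.09) at 24M, with an adjusted p of 0.00230 by edgeR's quasi-likelihood test. At 29M it was 0.84 (SE 0.10), with an adjusted p of 0.000527 by the same test. In fold terms the group means were 1.55 and 1.79 times those of 3M. Tissue libraries cannot tell more cells of a type from more RNA per cell, here and for every gene below.

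Tyrobp (ENSMUSG00000030579, chr7:30413760-30417585, plus strand, 6 merged exons) encodes the adaptor that TREM2 shares with other myeloid receptors. It stood at 9.94, 12.7, 11.4, 10.4 and 11.6 CPM in the 3M single-end samples and at 18.6, 17.1, 15.6, 14.8 and 19.0 CPM at 24M. The paired-end samples held 9.45, 11.6 and 11.0 CPM at 3M and 16.7, 20.1 and 19.0 CPM at 29M. As for Trem2, no aged sample reached down to a young one. The log2 fold change of Tyrobp was 0.60 (SE 0.09, adjusted p = 0.00427, edgeR's quasi-likelihood test) at 24M and 0.81 (SE 0.11, adjusted p = 0.00114) at 29M. At each age the changes of receptor and adaptor differed by less than the SE of either. Groups that did not overlap in CPM, with every aged sample above, were found for 2 of 10 members at 24M, where 2.94% of all genes did so. At 29M this held for 8 of 10 members, where 9.05% of all genes did so. At 29M it depended on the scale for members other than Trem2 and Tyrobp, as given below with levels per length.

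The calls for both genes did not rest on 1 sample. With each library left out in turn, Trem2 was called in 11 of 11 fits at 24M (log2 fold change 0.59 to 0.70) and in 6 of 6 at 29M (0.77 to 0.96). Tyrobp was called in 11 of 11 (0.56 to 0.64) and 6 of 6 (0.72 to 0.89). In the fits without 24M replicate 1 or without replicate 4, the other of the pair stayed in as the sample. Both genes were also called at 24M with replicates 1 and 4 both left out. The difference of the age effects, 29M minus 24M, was 0.20 (SE 0.14) for Trem2 and 0.21 (SE 0.15) for Tyrobp on the log2 scale, with adjusted p-values of 0.637 and 0.640 in edgeR's quasi-likelihood test. None of the 10 members passed in that test. Across all 16055 genes 0 passed with edgeR, 1674 (10.4%) had an unadjusted p under 0.05, and the smallest adjusted p was 0.392. DESeq2 gave adjusted p-values to 1895 genes only, with 2 of the 10 members among them, and called 1 gene, not a member. A larger effect at 29M than at 24M was thus not shown for any of the 10 genes.

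**Figure D2:**
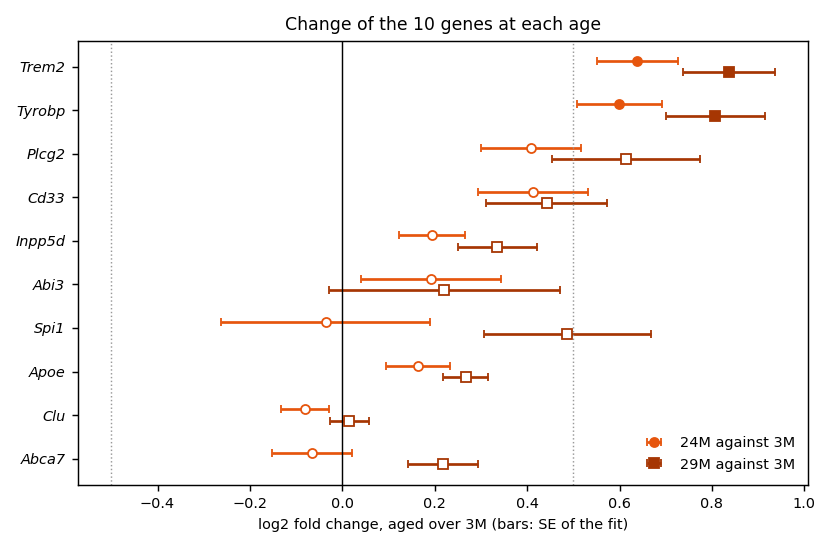
log2 fold change (horizontal axis) of each gene at 24M (circles) and at 29M (squares), each against 3M of the same library type; bars are the SE of the fit, filled symbols are called and dotted lines mark the fold threshold. Filled symbols are those of Trem2 (0.64 and 0.84) and Tyrobp (0.60 and 0.81).

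Further down the same pathway, Plcg2 (ENSMUSG00000034330, chr8:117498291-117635142, plus strand) encodes phospholipase C gamma 2, the enzyme that turns the TYROBP and SYK signal into calcium release. It stood at 5.84, 6.69, 5.56, 4.76 and 6.11 CPM in the 3M single-end samples and at 7.52, 8.08, 7.997, 7.88 and 6.51 CPM at 24M. In the paired-end samples it stood at 5.80, 4.78 and 6.19 CPM at 3M and at 8.29, 6.73 and 10.1 CPM at 29M. At 24M 1 aged sample fell within the young range, and at 29M the groups did not overlap. The log2 fold change was 0.41 (SE 0.11, adjusted p = 0.0450, edgeR's quasi-likelihood test) at 24M, below the fold threshold. Plcg2 thus passed the adjusted p there, as 3.21% of all genes did in the higher direction. With each library left out in turn that adjusted p ran from 0.0301 to 0.115 by edgeR, so the pass was not stable. At 29M the log2 fold change was 0.61 (SE 0.16), past the fold threshold, with an adjusted p of 0.0596 by edgeR. With each sample left out in turn, Plcg2 was called at 29M in 1 of 6 fits, with log2 fold changes of 0.46 to 0.72 and adjusted p-values of 0.0333 (without 29M replicate 2) to 0.279 (without 29M replicate 3) by edgeR. DESeq2 gave an adjusted p of 0.212.

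Of the restraining members, neither was called. Cd33 (ENSMUSG00000004609, chr7:43524216-43544428, minus strand) encodes a sialic acid-binding inhibitory receptor. It ranged over 4.61 to 5.58 CPM at 3M and 5.21 to 7.94 CPM at 24M in single-end libraries, and over 5.89 to 7.31 CPM at 3M and 7.46 to 9.57 CPM at 29M in paired-end libraries. Of the 24M samples 4 of 5 were above all 3M samples, and at 29M all 3 were, the nearest samples being 7.46 and 7.31 CPM. The log2 fold change of Cd33 was 0.41 (SE 0.12, adjusted p = 0.0566, edgeR) at 24M and 0.44 (SE 0.13, adjusted p = 0.0958, edgeR) at 29M, which did not pass. Inpp5d (ENSMUSG00000026288, chr1:87620312-87720507, plus strand) encodes SHIP1, which removes the lipid signal made by PI3 kinase. In single-end libraries the means of Inpp5d were 14.5 ± 0.775 (3M) and 16.5 ± 1.01 (24M) CPM (SD, n = 5 each). In paired-end libraries they were 13.7 ± 1.02 (3M) and 17.3 ± 0.761 (29M) CPM (SD, n = 3 each). The groups overlapped at 24M and did not at 29M. Its log2 fold change was 0.19 (SE 0.07, adjusted p = 0.107, edgeR) at 24M and 0.34 (SE 0.09, adjusted p = 0.0538, edgeR) at 29M, neither of which passed.

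Abi3 (ENSMUSG00000018381, chr11:95830074-95842476, minus strand) encodes an actin regulator of the WAVE complex family. Its counts were few, 36.6 per sample on average in the 3M single-end group and 20.7 in the 3M paired-end group, so counting error alone was 16.7% to 22.01% of the level in the 4 groups. In addition, 70.1% of its exon bases lay under exons of Zfp652 on the opposite strand, 41.1% under Phospho1 and 5.63% under Gngt2, and whether strand was used in counting is not stated, so its level is uncertain. The means of 3M and 24M were 1.68 ± 0.226 and 1.91 ± 0.153 CPM (SD, n = 5 each), and those of paired-end 3M and 29M were 1.65 ± 0.181 and 1.87 ± 0.430 CPM (SD, n = 3 each). These groups overlapped at both ages, and edgeR gave Abi3 log2 fold changes of 0.19 (SE 0.15, adjusted p = 0.464) and 0.22 (SE 0.25, adjusted p = 0.707).

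Spi1 (ENSMUSG00000002111, chr2:91082390-91115756, plus strand) encodes PU.1. It stood at 4.06, 7.73, 3.55, 3.53 and 3.35 CPM in the 3M single-end samples and at 4.73, 4.83, 3.14, 4.28 and 4.67 CPM at 24M. In the paired-end samples it stood at 3.81, 3.19 and 3.83 CPM at 3M and at 5.73, 3.91 and 5.31 CPM at 29M. The 3M single-end replicate 2 was above every other sample of all groups. Spi1 had a log2 fold change of −0.04 (SE 0.23, adjusted p = 0.941, edgeR) at 24M, and 0.24 (adjusted p = 0.330, edgeR) without that replicate, and 0.06 without 24M replicate 3, so Spi1 had no stable direction at 24M. At 29M it was 0.49 (SE 0.18, adjusted p = 0.185, edgeR).

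The lipid-carrying members were far more abundant and changed little. Apoe (ENSMUSG00000002985, chr7:19696109-19699188, minus strand) encodes the main apolipoprotein of the brain, made chiefly by astrocytes and also by microglia, and a ligand of TREM2. It stood at 1453, 1479, 1376, 1249.7 and 1287 CPM in the 3M single-end samples and at 1482, 1603, 1292, 1686 and 1571 CPM at 24M. The paired-end samples held 1248, 1456 and 1415 CPM at 3M and 1652, 1555 and 1718 CPM at 29M. At 24M the groups overlapped through 1 low aged sample, and at 29M they did not. Apoe changed by a log2 fold of 0.16 (SE 0.07, adjusted p = 0.150, edgeR's quasi-likelihood test) at 24M. At 29M it was 0.27 (SE 0.05), below the fold threshold, with an adjusted p of 0.00927 by edgeR. That passed the p threshold, as 2.32% of all genes did in the higher direction. The pass held with each sample left out in turn (adjusted p at most 0.0444, edgeR). It did not hold under every alternative fit, where the adjusted p reached 0.195 (edgeR or DESeq2). Of 11 astrocyte markers, Gfap was called higher at both ages (0.66 and 0.80 on the log2 scale, adjusted p = 8.8e-05 and 7.42e-07, edgeR) and the other 10 were not called. The summed level of these markers ranged over 6313 to 7008 CPM at 3M and 6804 to 7132 CPM at 24M, and over 5892 to 6131 CPM at 3M and 6139 to 6553 CPM at 29M. The part of these cells in the Apoe values was not tested.

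Clu (ENSMUSG00000022037, chr14:65968483-65981547, plus strand) encodes clusterin, a secreted chaperone that also travels on lipoproteins. The means of 3M and 24M were 1175 ± 79.4 and 1106 ± 54.7 CPM (SD, n = 5 each), and those of paired-end 3M and 29M were 963 ± 54.5 and 966 ± 28.8 CPM (SD, n = 3 each). The groups overlapped at both ages, with log2 fold changes of −0.08 (SE 0.05, adjusted p = 0.340, edgeR) and 0.01 (SE 0.04, adjusted p = 0.896, edgeR). Abca7 (ENSMUSG00000035722, chr10:79996494-80015572, plus strand) encodes a lipid transporter of the ABC family. It stood at 22.6 to 28.6 CPM at 3M and 19.9 to 26.4 CPM at 24M, and at 20.6 to 24.1 CPM at 3M and 25.0 to 27.9 CPM at 29M. For Abca7 the log2 fold change was −0.07 (SE 0.09, adjusted p = 0.668, edgeR) at 24M and 0.22 (SE 0.08, adjusted p = 0.154, edgeR) at 29M. The difference of these effects, 0.28 (SE 0.13), had a p of 0.0480 with edgeR before and 0.470 after adjustment.

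To compare the genes with each other, levels were divided by the length of merged exons and rescaled to a common total (TPM). In the 3M single-end group Apoe led with 2874 TPM, followed by Clu with 1533 TPM, Tyrobp with 75.6 TPM, Abca7 with 16.7 TPM and Trem2 with 11.1 TPM. Below them came Inpp5d (8.57 TPM), Spi1 (7.41 TPM), Plcg2 (6.05 TPM), Cd33 (3.04 TPM) and Abi3 (1.81 TPM), and in this order the ranges of Inpp5d and Spi1 and those of Spi1 and Plcg2 overlapped. At 24M and 29M Trem2 had a higher mean TPM than Abca7, with overlapping ranges. In TPM the 29M samples stayed above all paired-end 3M samples for Trem2 (nearest 12.7 and 12.3) and Tyrobp (95.0 and 74.0). Those of Apoe, Plcg2, Cd33, Inpp5d, Spi1 and Abca7, apart in CPM, overlapped in TPM. In each of these genes the lowest 29M value was replicate 2. That library had 29.6% of its total on no gene, beside 23.9% to 26.3% in the other paired-end libraries. The order below Tyrobp depended on the length used. With the median length of protein-coding transcripts, chosen after seeing the data, Trem2 (1072 bases in place of 4946) stood at 30.0 TPM, above Abca7 at 9.97 TPM, while Tyrobp stood at 52.4 TPM, so on that scale too the adaptor exceeded the receptor.

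Microglia markers moved with Trem2 and Tyrobp. The summed level of 13 markers, among them Aif1, Cx3cr1, P2ry12 and Tmem119, ranged over 448 to 513 CPM at 3M and 548 to 585 CPM at 24M, and over 432 to 456 CPM at 3M and 530 to 578 CPM at 29M, without overlap. Of the 13, 7 had an adjusted p of at most 0.05 in the higher direction at each age, as 3.21% and 2.32% of all genes did, and none in the lower one. Fcrls alone had a fold change below 0 at both ages (−0.17 and −0.06), which did not pass. Called past the fold threshold were P2ry12 at 24M (0.52, adjusted p = 0.0342, edgeR), a purine receptor of resting microglia, and Tmem119 at 29M (0.51, adjusted p = 0.0183, edgeR). No marker was at 0. The mean of Trem2 as a share of the marker sum was 2.58% ± 0.235 (SD, n = 5) at 3M and 3.38% ± 0.373 (SD, n = 5) at 24M, 1.31 times as high, with overlapping samples. At 29M it was 3.94% ± 0.182 against 2.75% ± 0.339 (SD, n = 3 each), 1.43 times as high and without overlap. Tyrobp over the marker sum was 1.28 times as high at 24M and 1.40 times as high at 29M, without overlap at either age.

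The other members of the microglial set kept closer to the markers. Relative to the marker sum, the aged mean over the young mean was 1.11 and 1.09 for Cd33 at 24M and 29M, and 1.11 and 1.19 for Plcg2. It was 0.957 and 1.01 for Inpp5d, 0.962 and 0.904 for Abi3, and 0.832 and 1.10 for Spi1, the first of which includes 3M replicate 2. For Apoe, which microglia do not make alone, it was 0.942 and 0.958. All 6 of these genes had overlapping groups on this scale at both ages. The geometric mean of the 13 markers, chosen after seeing the data, left the overlap or its absence as it was for all 8 genes. No test was run on these ratios.

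**Figure D3:**
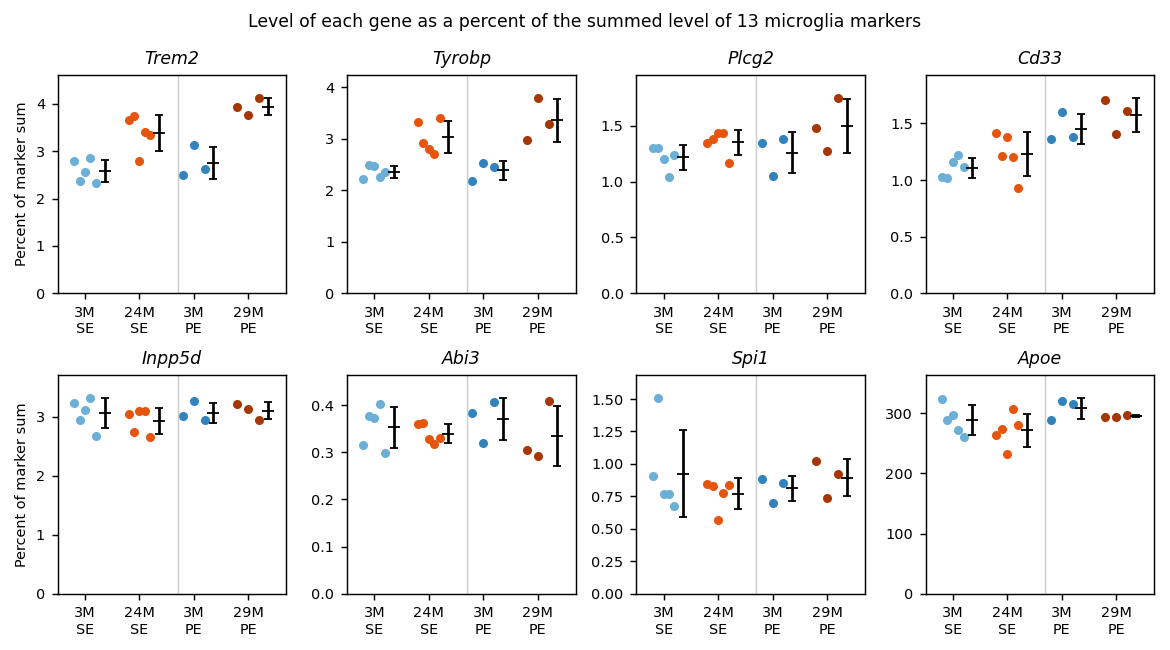
Level of 8 of the genes as a percent of the summed CPM of 13 microglia markers in the same sample (vertical axes, starting at 0), by group; points are samples and black bars the mean ± SD. Trem2 goes from 2.58% to 3.38% at 24M and from 2.75% to 3.94% at 29M, while the group means of Inpp5d lie between 2.93% and 3.10%.

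Markers of other cells were measured in the same libraries. Macrophages of the brain's borders and monocytes can also carry TREM2 and TYROBP. Their 10 markers summed to 9.07 to 13.2 CPM at 3M and 9.97 to 19.0 CPM at 24M, and to 7.96 to 12.7 CPM at 3M and 10.8 to 17.7 CPM at 29M. With edgeR 0 of 7 tested markers were called at 24M (3 with an unadjusted p under 0.05, 1 called by DESeq2). At 29M 0 of 4 were called (0 and 0). The log2 fold change was above 0 in 7 of 7 at 24M (median 0.47) and 4 of 4 at 29M (median 0.54). Of all genes 49.2% and 49.4% were above 0. Mrc1 had log2 fold changes of 0.47 and 0.34 and Cd163 of 0.83 and 0.60, and their part in the Trem2 and Tyrobp values was not tested. T cell markers summed to at most 5.79 CPM in any sample, and Cd8a was at 0 in all paired-end 3M samples. All 5 blood genes had log2 fold changes above 0 with an unadjusted p under 0.05 at both ages, 1.29 to 1.55 at 24M and 0.60 to 0.95 at 29M. With edgeR 0 were called at 24M and 2 at 29M (Hba-a1 and Alas2), with DESeq2 1 and 0, and the blood sum reached 542 CPM in 24M replicate 2. The part of blood in the values of the members was not tested. Of 7 endothelium markers 1 was called lower at 24M, the tight junction gene Cldn5 (−0.60), and 0 at 29M. In this list 4 of 7 log2 fold changes were above 0 at 24M (median 0.07) and 1 of 7 at 29M (median −0.11). No marker of neurons, oligodendrocytes or choroid plexus was called at either age by edgeR or by DESeq2, and with an unadjusted p under 0.05 each list held 0 to 4 higher and 0 to 3 lower genes.

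Genes around the receptor were followed as a list of 35, most of them kinases, adaptors and enzymes downstream of ITAM signals, with some other SYK-coupled receptors. Of 32 tested, 2 rose at 24M and 5 at 29M and none fell, where 1.34% of all genes were called higher at each age. DESeq2 called 2 and 3 of them, and the list medians were 0.10 and 0.26 on the log2 scale. Clec7a, which encodes the SYK-coupled receptor Dectin-1, rose at both ages, from 0.565 to 3.22 CPM at 24M (2.53, adjusted p = 0.000310, edgeR) and from 0.343 to 3.21 CPM at 29M (3.21, adjusted p = 4.42e-05, edgeR). Lat2, an adaptor of such receptors, rose at 24M (0.78, adjusted p = 0.0113, edgeR). Its log2 fold change at 29M was 0.71 (adjusted p = 0.0903, edgeR), not called. At 29M Ptprc (0.96), the phosphatase CD45, and Fcer1g (0.72), an ITAM adaptor of Fc receptors related in function to TYROBP, rose. So did Ptpn6 (0.70) and Vav1 (0.66), this last pair named after their values were seen. At 24M the values were 0.61 for Ptprc (adjusted p = 0.0928, edgeR), 0.22 for Fcer1g, 0.26 for Ptpn6 and 0.01 for Vav1, none called. Syk, the kinase that TYROBP recruits, had log2 fold changes of 0.00 (SE 0.12) and 0.05 (SE 0.19) at levels of 5.23 to 5.83 CPM in the group means, and did not pass. Hcst, the gene of the adaptor DAP10, was near 0 with at most 6 counts in any sample, and so was not tested.

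Inhibitory receptors related to CD33 and their phosphatases formed a list of 17, of which 11 were tested at 24M and 8 at 29M. At 24M 3 were called higher, Cd22 (2.23, adjusted p = 0.00230, edgeR), Fcgr2b (0.56) and Lair1 (0.53), and at 29M 1, Lair1 (0.62, adjusted p = 0.0180, edgeR). Cd22, like Cd33, encodes a sialic acid-binding receptor, and went from 0.225 to 1.10 CPM. At 29M Fcgr2b, the inhibitory Fc receptor, reached 0.73 on the log2 scale (adjusted p = 0.0512, edgeR). None was called lower. DESeq2 called 3 of the list higher at 24M and 2 at 29M. Of all genes tested, edgeR called 1.34% higher at each age.

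**Figure D4:**
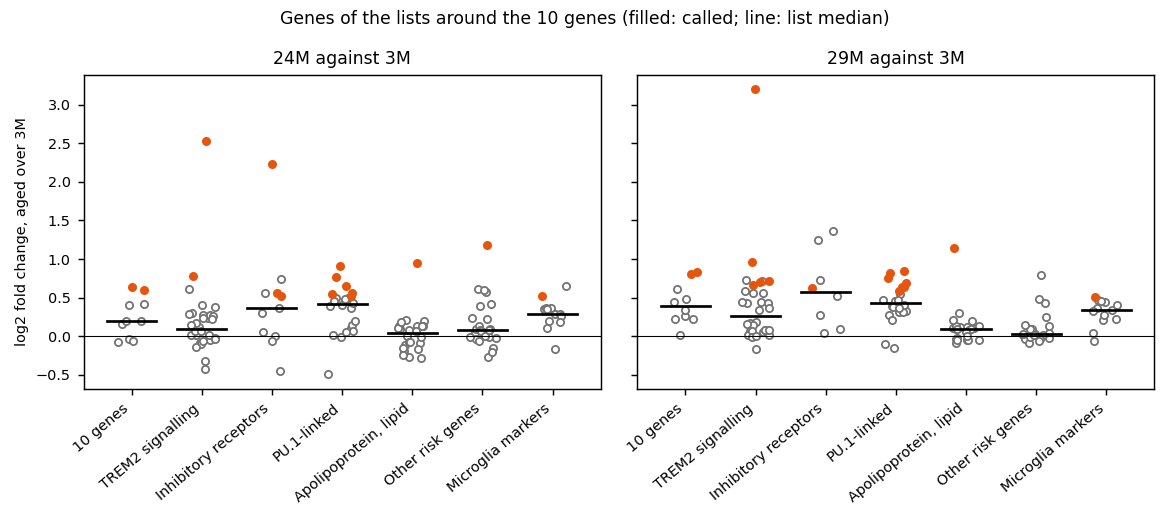
log2 fold change (vertical axis) of each tested gene of 7 lists at 24M (left) and at 29M (right); filled points are called and lines are list medians. The PU.1-linked genes have medians of 0.42 and 0.43 and the apolipoprotein and lipid genes 0.04 and 0.10.

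Genes that PU.1 is known to act with or on in myeloid cells formed a list of 22, all tested. Of them 6 rose at 24M and 7 at 29M and none fell, where 1.34% of all genes were called higher at each age, and the median log2 fold change was 0.42 and 0.43. Called at both ages were Ctss (0.90 and 0.82), which encodes cathepsin S, C1qa (0.55 and 0.69), a chain of complement C1q, and Irf8 (0.57 and 0.85), a partner factor of PU.1. Runx1 (0.77) and Tlr4 (0.65) were called at 24M, and at 29M had 0.47 and 0.38, not called. Cd68 was called at 29M (0.75). At 24M it had 0.498 (adjusted p = 0.0406, edgeR), just below the fold threshold. Spi1 itself was not called at either age. Mef2c, a factor that neurons also express, had log2 fold changes of −0.50 (adjusted p = 0.0923, edgeR) and −0.15 (adjusted p = 0.0977, edgeR), which did not pass. This list shares Csf1r and Cx3cr1 with the microglia markers, so the lists are not independent. It was also chosen with earlier results of these data known, so its share of called genes is a description.

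Apolipoproteins, their receptors and genes of lipid transport formed a list of 26, of which 24 were tested at 24M and 23 at 29M, with medians of 0.04 and 0.10. The 1 gene called at each age was Apod, which encodes a small lipid carrier of glia, at 0.95 (adjusted p = 0.000222, edgeR) and 1.14 (adjusted p = 1.67e-05, edgeR). Its mean went from 163 to 314 CPM at 24M and from 135 to 296 CPM at 29M, beside Apoe at 0.16 and 0.27. A list of 31 further risk genes, most of them not particular to microglia, had 1 of 25 called at 24M and 0 of 21 at 29M (2 higher and 1 lower at an unadjusted p under 0.05, 0 called by DESeq2), with medians of 0.07 and 0.03. The called gene was Treml2, a neighbour of Trem2 in the same receptor cluster, at 1.18 (adjusted p = 0.0413, edgeR), from 0.382 ± 0.156 to 0.876 ± 0.232 CPM (SD, n = 5 each). With 4 to 16 counts per sample its level was imprecise. At 29M it was below the filter, with means of 0.340 and 0.680 CPM. The other genes of the cluster, Trem1, Trem3 and Treml1, had at most 7 counts in any sample.

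How the members varied within groups was described by the correlation of their log2 deviations from the group mean over 16 samples. All genes of a sample share its library depth and dissection. Of 45 pairs of members 30 were above 0, with a median Pearson r of 0.19. The highest was Cd33 with Inpp5d (r = 0.66, rho = 0.71) and the lowest Abi3 with Abca7 (r = −0.57). Trem2 and Tyrobp, which rose together with age, had an r of 0.27 and a rho of 0.20 within groups, and 0.06 without the 2 samples farthest from the median. Trem2 and Apoe had an r of 0.60 and a rho of 0.54, and 0.35 without the 2 farthest. With the microglia marker sum the r was 0.51 for Tyrobp on either scaling. For Trem2 it was 0.33 and for Apoe 0.32, but 0.076 and 0.10 on TMM library sizes.

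**Figure D5:**
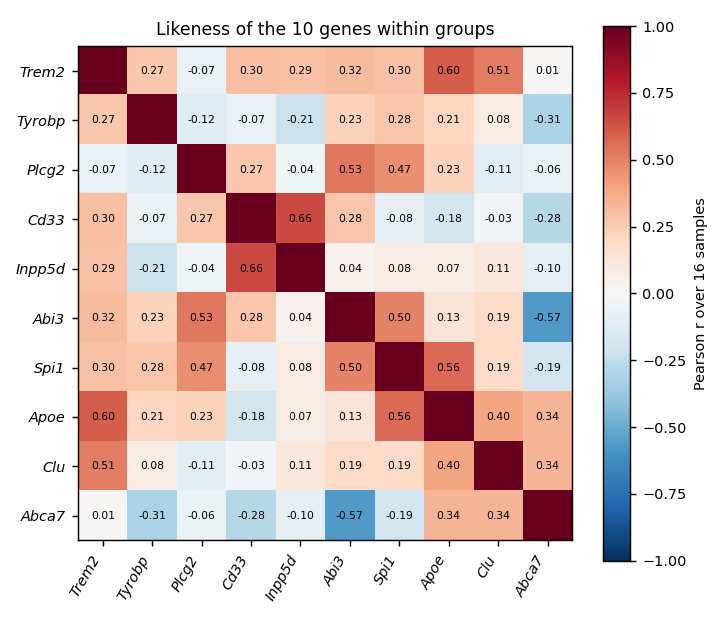
Pearson r between each pair of the 10 genes, over 16 samples, of their deviations from the group mean on the log2 scale; the color runs from −1 (blue) to 1 (red). Trem2 and Tyrobp have an r of 0.27, Trem2 and Apoe 0.60, and Cd33 and Inpp5d 0.66.

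Among 14584 other genes with a mean of at least 1 CPM, those most like Trem2 within groups were Pnpla2 (r = 0.91), Tmem204 (0.89) and Rbpms (0.89). For Tyrobp they were Snx2 (0.86), Utp18 (0.86) and Myo3b (0.84). For Apoe they were Srd5a3 (0.92), Id3 (0.91) and Mrc2 (0.90). No gene was shared between these 3 short lists, and with so many genes ranked over 16 samples values of this size are the top of a long list and no more than a description.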

How the data were processed

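PolyA RNA of 17 hippocampal samples was sequenced by the authors from TruSeq libraries, aligned with STAR 2.3.0 to GRCm38.p2 and counted per gene with HTSeq, and the deposited values are raw counts per gene. The annotation release and strand setting were not given in the sources used here. In each file, lines naming no gene (23.9% to 40.3% of its total) were left out. Counts of 24M replicates 1 and 4 were averaged, rounded and treated as 1 sample. Counts were tested with edgeR 4.0.16 (TMM, filterByExpr with a minimum count of 10, quasi-likelihood F test) in R 4.3.3, within each library type, on all genes. DESeq2 1.42.0, other size factors, other filters, 1 fit of all groups, a replicate block and leaving out each library were alternatives. Depth was 9213474 to 28438296 counts, and counting errors given cover counting only. Simulated counts were judged by an adjusted p of at most 0.05 alone, without the fold threshold, and the changed genes left out those of lowest level. For 24M against 3M (15536 genes) 93 of 100 changes of 2-fold and 76 of 100 of 1.5-fold passed, with 4 false passes. For 29M (14944 genes) these were 90, 81 and 19. Likeness used log2(CPM + 0.5). TPM, exon overlaps and gene positions came from GENCODE M21 on GRCm38. Identifiers were named for 36602 of 38355.

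The members and lists were chosen with earlier results of these data known. Named were the 10 members, list genes called at both ages, the 3 called genes with the largest change per list and comparison, the 3 genes most like Trem2, Tyrobp and Apoe, and defining cell markers. Lilrb4a and Ms4a4a matched no identifier and are not analysed here.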

Additional observations from a re-analysis of the deposited data

Results flagged for a closer look

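In 64 groups of 5 samples (member levels, ratios to the microglia markers and list sums), 5 had 1 sample whose gap to its nearest neighbour, as a share of the group's range, was above the critical value of 0.71, where chance gives about 3.2. Spi1 in 3M single-end replicate 2 stood at 7.731 CPM against a group median of 3.552 (gap share 0.8385), and at 1.506% of the microglia marker sum against 0.7708% (0.7255). In the same sample 13 of 22 PU.1-linked genes, 7 of 13 microglia markers and 15 of 32 genes of TREM2 signalling were the highest of the 5, and these were counted after the Spi1 value was seen. Trem2 in that sample, at 12.2 CPM, was in the middle of its group, and Tyrobp, at 12.7 CPM, was the highest. Spi1 over the marker sum in 24M replicate 3 was 0.564% against a median of 0.8269% (0.7676). The summed level of the further risk genes in 24M replicate 6 was 5110 CPM against 5432 CPM (0.7506). The blood sum in 24M replicate 2 was 542 CPM against 134 CPM (0.8222), while Trem2 and Tyrobp in that sample were 21.8 and 17.1 CPM, the highest and the middle value of their group.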

How the results depend on the processing

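Trem2 was called under every alternative run at both ages, and Tyrobp under every one but the replicate block at 24M, where its log2 fold change was 0.54 with an adjusted p of 0.0894 by edgeR. Same-numbered samples had an r of −0.17 to 0.10 between their deviations, below the best other number for all but 29M replicate 3. The best of several others tends to be higher in any case, so this does not settle whether the numbers pair the samples. With this replicate block 58 genes were called higher and 25 lower at 24M, 1 member among them, against 210 and 100 without it, and 203 and 22 at 29M. At 24M 1 fit of all 4 groups called 345 higher and 173 lower, no fold threshold 504 and 371, and leaving out replicates 1 and 4 both 112 and 51. Leaving out 1 sample gave 91 (without 24M replicate 2) to 394 (without 3M replicate 5) higher and 28 to 174 lower. At 29M, against 202 and 17, no filter gave 368 and 73, 1 fit of all groups 83 and 3, no fold threshold 351 and 100, and leaving out 1 sample 113 (without 29M replicate 3) to 207 higher and 7 to 27 lower, with 2 to 3 members called. For the difference of the effects DESeq2, with adjusted p-values for 1895 genes and 2 members, called 1 gene lower. Leaving out 3M replicate 5 called 3 higher and 54 lower, against 0 otherwise. No member was called in any of these fits. Plcg2 at 29M was called with no filter (0.61) and under the block (0.58), and not with DESeq2 (adjusted p = 0.212), with 1 fit of all groups (adjusted p = 0.111, edgeR) or in 5 of 6 fits without 1 sample. Without the fold threshold Plcg2 at 24M (0.41) and Apoe at 29M (0.27) were called. Among the alternatives, the adjusted p of Plcg2 at 24M ran from 0.0201 (DESeq2) to 0.168 (edgeR, replicate block), with 0.0579 (edgeR) under no filter. That of Apoe at 29M reached 0.195 (edgeR or DESeq2). On TMM library sizes the r with the microglia sum was 0.076 for Trem2, against 0.33, and 0.10 for Apoe, against 0.32. The cause of these differences was not tested.

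Reversed in direction, none past a threshold, were Spi1 at 24M without 3M replicate 2 (0.24) and without 24M replicate 3 (0.06), over a range of −0.12 to 0.24 when 1 sample was left out, and Clu at 29M without 3M replicate 1 (range −0.015 to 0.035). The difference of effects of Cd33 ranged from −0.048 to 0.11 when 1 sample was left out, below 0 in 5 fits, and was −0.0092 with 24M replicates 1 and 4 kept apart. That of Abi3 ranged from −0.18 to 0.096, below 0 in 5 fits. Depth limits Abi3, Spi1 and Treml2, with few reads per sample, more than Apoe or Clu.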
